A study of Mus musculus with 8 samples.

Results

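The myostatin and activin receptor pathway was examined in gastrocnemius muscle of aged mice through 10 genes chosen by name for their roles, out of 32390 rows in the table of counts. They encode the ligand myostatin (*Mstn*), the extracellular inhibitors follistatin (*Fst*) and its relatives (*Fstl1*, *Fstl3*), the type II receptors ACVR2A and ACVR2B (*Acvr2a*, *Acvr2b*), the type I receptor ACVR1B (*Acvr1b*), the receptor-activated SMADs (*Smad2*, *Smad3*) and the inhibitory SMAD (*Smad7*). Bulk RNA-seq was done on muscle of 4 control mice (Nox4 fl/fl) and 4 NOX4-deficient mice (MckCre:Nox4 fl/fl), all 21 months old per the labels. All 8 mice carried the floxed *Nox4* allele, were males on a C57BL/6 background and were fed standard chow, and only the NOX4-deficient mice carried Cre. *Mck* drives Cre in muscle fibers and more weakly in the heart, so that other cell types in the muscle keep *Nox4*. The controls carried no Cre transgene, so that an effect of Cre itself cannot be told apart from that of the deletion.

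Myostatin is made by muscle fibers and restrains muscle growth. It is secreted as a latent precursor, and the mature dimer binds ACVR2B or ACVR2A, which recruit and phosphorylate a type I receptor such as ACVR1B. The type I receptor then phosphorylates SMAD2 and SMAD3, which enter the nucleus with SMAD4. Activins share these receptors, follistatin and FSTL3 trap the ligands outside the cell, and SMAD7 is a SMAD target gene whose product blocks the type I receptors. FSTL1 carries a follistatin-like domain but is a secreted glycoprotein with other known partners.

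None of the 9 members that could be tested passed the test between genotypes, and the groups overlapped in all 10. The fitted log2 fold changes ran from -0.39 for *Fstl1* to 0.43 for *Acvr1b*, and that of *Mstn* was -0.04. A gene was called where edgeR's quasi-likelihood F test gave an adjusted p-value under 0.05 (Benjamini-Hochberg over 12725 rows) and the absolute log2 fold change was over 0.5. By this rule 0 of 9 members were called, where 6.16% of all rows tested were, and 0 passed without the minimum fold change, where 7.75% did. No member had an unadjusted p-value under 0.05 in the main edgeR fit, against 23.2% of all rows tested. DESeq2 and pydeseq2 also called 0, with 1 member at an unadjusted p-value under 0.05 in each, as in several alternative edgeR fits. Groups that did not overlap made up 16.2% of all rows tested (7.2% higher and 8.97% lower in NOX4-deficient muscle) and 0 of the 10 members. Of 72 genes of the wider pathway tested, 2 were called higher in NOX4-deficient muscle, the myostatin relative *Gdf11* and *Id1*, where 2.68% of all rows tested were. Lower calls numbered 5 (*Tgfbr1*, *Tgfbr3*, *Smad5*, *Tgif1* and *Cdkn1a*), where 3.48% of all rows tested were called lower. *Gdf11*, *Tgfbr3* and *Id1* lost their calls in most fits that left out 1 library.

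The libraries held from 16350548 to 19804661 counts on genes. Levels are given as CPM (counts per 1000000, scaled between libraries by edgeR's TMM method), errors are SDs over 4 mice, and fold changes are NOX4-deficient over control. *Nox4* itself measured 5.09, 2.47, 1.87 and 3.64 CPM in the controls (replicates 1 to 4) and 1.74, 2.17, 2.21 and 2.17 CPM in NOX4-deficient replicates 1 to 4. Its groups overlapped, with a log2 fold change of -0.65 (SE 0.29, adjusted p = 0.207 in edgeR) and an exact two-sided permutation p of 0.2, where the smallest p that 4 against 4 allow is 0.0286. Counts cover the whole gene, so that transcripts lacking the deleted part would still be counted. The 10 muscle fiber markers were all detected in all libraries, with a summed level of 122029 to 149375 CPM among controls and 131899 to 148956 CPM among NOX4-deficient mice, and 0 of them called. The first principal component, with 34.9% of the variance, separated all NOX4-deficient mice from all controls. The second, with 19.0% of the variance, separated NOX4-deficient replicates 2 and 4 from 1 and 3.

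The same libraries differed in how levels depended on transcript length. The slope of the log2 deviation from the gene's mean, per doubling of exon length, was -0.13, 0.10, -0.08 and 0.05 in NOX4-deficient replicates 1 to 4 and -0.04, 0.05, -0.01 and 0.06 in control replicates 1 to 4. In the bulk tissue, fewer cells of a type and less RNA per cell cannot be told apart.

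Promoter sequence is shown for *Mstn* and *Gdf11*, the closest relatives among the ligands, of which only the latter was called. The 250 bases before the RefSeq start site (build GRCm38.p6) are given 5′ to 3′, with matches to the E-box CANNTG, the core bound by myogenic factors such as MYOD, in capitals. The *Mstn* window is chr1:53061390-53061639 on the plus strand and the *Gdf11* window is chr10:128891719-128891968 on the minus strand.
*Mstn*: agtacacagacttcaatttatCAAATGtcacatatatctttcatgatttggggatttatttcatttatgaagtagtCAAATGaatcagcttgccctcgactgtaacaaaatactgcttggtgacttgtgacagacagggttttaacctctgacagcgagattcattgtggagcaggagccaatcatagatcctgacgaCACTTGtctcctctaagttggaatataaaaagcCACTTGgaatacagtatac
*Gdf11*: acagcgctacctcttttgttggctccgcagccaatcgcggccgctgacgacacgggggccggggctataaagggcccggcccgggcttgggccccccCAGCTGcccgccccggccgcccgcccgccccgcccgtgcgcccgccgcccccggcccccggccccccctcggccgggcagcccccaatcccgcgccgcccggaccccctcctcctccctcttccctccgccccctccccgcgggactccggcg

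The *Mstn* window held 4 E-boxes, whose first letters lie 229, 174, 52 and 19 bases before the start, and a TATAAA 29 bases before it. Each motif was searched on both strands. The GC content of the *Mstn* window was 38.4%. The *Gdf11* window held 1 E-box, 153 bases before the start, and a TATAAA at 185 bases, with a GC content of 81.2%. The letters CAGAC, which hold the core of the SMAD-binding element, occurred at 2 places in the *Mstn* window and at 0 in that of *Gdf11*. Over all 32851 promoter windows of the same length, 66.2% held CANNTG, 42.2% CAGAC and 12.4% TATAAA. Matches to CANNTG and CAGAC are thus common, and those to TATAAA less so. The promoter table held 7 of the 10 members. Among them, *Fstl3* also held a TATAAA, and *Fstl1*, *Acvr2a*, *Acvr2b* and *Smad3* held no E-box in this window.

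To compare levels between genes, CPM was divided by exon length (GENCODE M21, exons of all transcripts merged). Per kb of exon, *Mstn* had the highest mean of the members, at 34.6 ± 4.48 CPM per kb (SD, n = 4) among controls and 33.6 ± 10.2 (SD, n = 4) with NOX4 deficiency. *Mstn* lay above *Smad3* in 8 of 8 mice, but in NOX4-deficient replicate 3 it lay below *Acvr1b* (20.3 against 27.4 CPM per kb). *Smad3* (18.6 ± 3.47 CPM per kb in control) and *Acvr1b* (15.4 ± 2.26) came next and could not be ordered, since *Smad3* lay above *Acvr1b* in 2 of 4 control mice and in 3 of all 8. *Acvr2a* (8.16 ± 2.56) and *Fstl1* (7.80 ± 2.69) formed the next level and overlapped each other, as did *Smad2* (1.71 ± 0.206) and *Smad7* (1.45 ± 0.364) below them. *Acvr2b* (0.656 ± 0.237) and *Fst* (0.656 ± 0.0592) were far lower, and *Fstl3* (0.230 ± 0.0951) was lowest. Of the type II receptors, *Acvr2a* thus had the higher level per kb and *Acvr2b* the lower in every mouse. *Smad3* likewise stood above *Smad2* in every mouse.

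**Figure D1:**
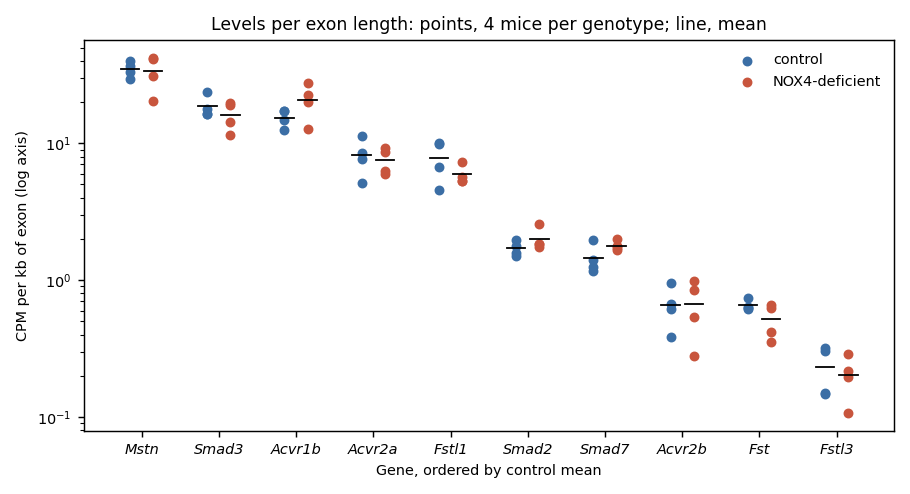
Level of each member per exon length, as CPM per kb of exon on a log axis, with 1 point per mouse (4 control, 4 NOX4-deficient) and a line at each mean. By mean, *Mstn* is highest, at 34.6 CPM per kb in control, *Fstl3* is lowest, at 0.230, and the genotypes overlap for every gene.

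The ligand *Mstn* had 79.2, 89.5, 107 and 98.7 CPM in control replicates 1 to 4 and 83.8, 112, 55.0 and 113 CPM in NOX4-deficient replicates 1 to 4. The NOX4-deficient mice thus held the lowest value and the 2 highest values of all 8. Mean levels were 93.7 ± 12.1 and 90.9 ± 27.5 CPM (SD, n = 4 each), which gave a log2 fold change of -0.04 (95% interval -0.48 to 0.39, edgeR adjusted p = 0.927). The coefficient of variation between mice was 12.9% in control and 30.2% in NOX4-deficient muscle, where the median over all rows tested was 13.9% and 16.7%. The sign of the *Mstn* difference changed with single libraries, and without NOX4-deficient replicate 3 the log2 fold change was 0.15.

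Among the inhibitors, *Fst* was at 3.42, 2.83, 2.89 and 2.91 CPM in control and at 2.89, 3.03, 1.63 and 1.93 CPM in NOX4-deficient replicates 1 to 4. NOX4-deficient replicates 3 and 4 lay below every control, and replicates 1 and 2 lay within their range. The exons of *Fst* share 115 bases with *Gm47040* on the opposite strand. *Fst* had a log2 fold change of -0.34 (95% interval -0.85 to 0.17, edgeR adjusted p = 0.422).
*Fstl1* was at 49.5, 48.8, 32.7 and 22.3 CPM in control and at 26.2, 36.0, 28.1 and 26.3 CPM in NOX4-deficient muscle. The controls fell into a high pair and a low pair, and the NOX4-deficient mice lay between control replicate 4 and the high pair. For *Fstl1* it was -0.39 (95% interval -0.89 to 0.10, edgeR adjusted p = 0.332), and -0.58 without control replicate 4 (edgeR adjusted p = 0.0741). Markers of fibro-adipogenic progenitors and fibroblasts, cells that also make FSTL1, had a summed level of 678 to 1087 CPM among controls and 510 to 815 CPM with NOX4 deficiency. Of these 10 markers 2 were called lower, *Mfap5* (-0.89) and *Pi16* (-0.88), where 3.48% of all rows tested were. Of the 10, 0 were called higher, and none was at 0 in all libraries. The log2 fold change was negative for 9 and positive for 1, *Lum* (0.71, edgeR adjusted p = 0.252). *Gsn* made up most of the summed level, averaging 574 CPM among controls and 442 CPM with NOX4 deficiency. The part of these cells in the *Fstl1* values was not tested.

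*Fstl3*, a secreted glycoprotein that binds myostatin and activin, had 13, 7, 14 and 7 counts among control replicates 1 to 4, against 8, 14, 5 and 9 with NOX4 deficiency. It fell below the filter on low counts and so has no test here, and its groups overlapped. Its exons share 1157 bases with *Prss57* on the opposite strand, and the libraries do not keep strand, so that reads there cannot be assigned by strand.

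The type II receptor *Acvr2a* was at 29.2, 48.2, 43.6 and 64.5 CPM in control and at 35.7, 52.5, 33.6 and 48.7 CPM in NOX4-deficient muscle. Controls 1 and 4 were the lowest and highest of all 8 mice. *Acvr2a* had a log2 fold change of -0.12 (95% interval -0.61 to 0.37, edgeR adjusted p = 0.795), and it turned to 0.08 without control replicate 4. Its exons overlap *Orc4*, on the other strand, over 446 bases.
*Acvr2b*, the type II receptor with the higher known affinity for myostatin, was at 1.50, 3.76, 2.41 and 2.65 CPM in control and at 2.11, 3.89, 1.10 and 3.34 CPM in NOX4-deficient muscle. The values of the genotypes lay among each other, with a log2 fold change of 0.01 (95% interval -0.79 to 0.81, edgeR adjusted p = 0.991). The ratio of *Acvr2a* to *Acvr2b* counts averaged 18.7 ± 4.73 among controls and 18.9 ± 7.87 with NOX4 deficiency (SD, n = 4 each), and its ranges overlapped.

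*Acvr1b*, the type I receptor also called ALK4, was at 65.2, 55.0, 76.0 and 75.5 CPM in control and at 56.6, 98.7, 121 and 88.2 CPM in NOX4-deficient replicates 1 to 4. NOX4-deficient replicates 2, 3 and 4 lay above all 4 controls, and replicate 1 lay among them. Mean levels were 67.9 ± 9.99 and 91.2 ± 26.8 CPM (SD, n = 4 each), and the log2 fold change was 0.43 (SE 0.20, 95% interval -0.01 to 0.86, edgeR adjusted p = 0.222). Without NOX4-deficient replicate 1 it was 0.61 and passed the threshold (edgeR adjusted p = 0.0339), so that this library decided the call. Over all other alternatives *Acvr1b* was not called.

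**Figure D2:**
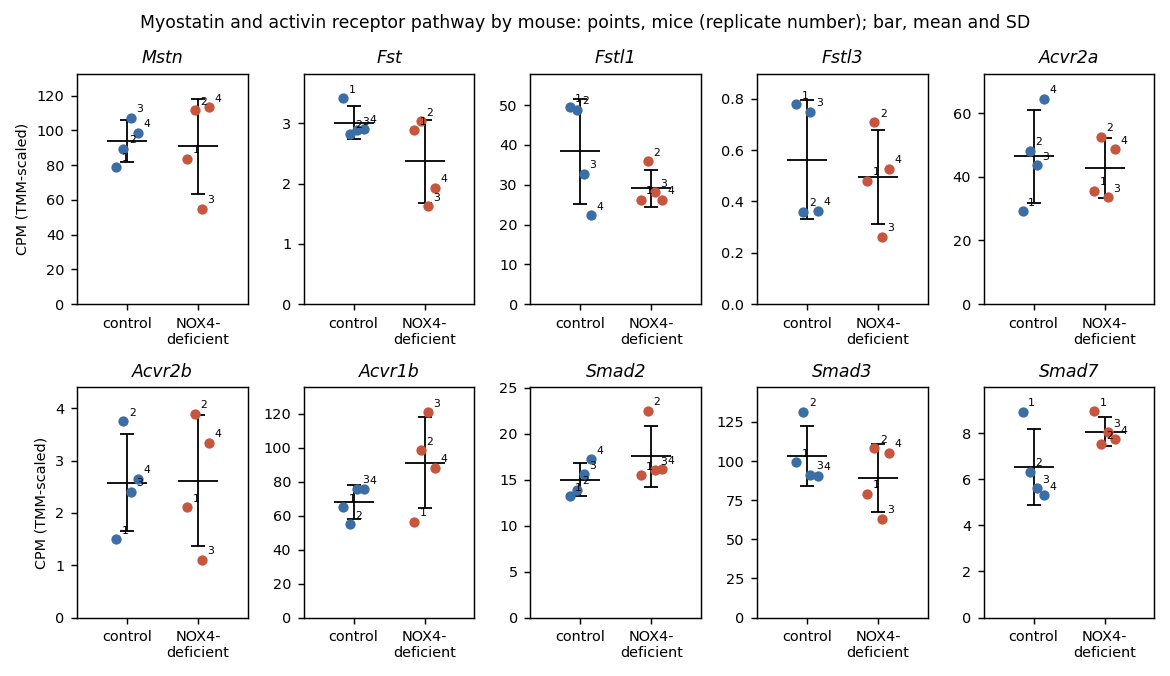
CPM of the 10 members in each mouse, on linear axes from 0, with the replicate number beside each point and bars for the mean and SD of 4 mice. The genotypes overlap in every panel, and for *Acvr1b* the NOX4-deficient replicates 2, 3 and 4 lie above all controls.

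*Smad2*, whose protein carries the signal with that of *Smad3*, was at 13.2, 13.9, 15.6 and 17.2 CPM in control and at 15.5, 22.5, 16.0 and 16.1 CPM in NOX4-deficient muscle. Only NOX4-deficient replicate 2 exceeded the highest control. The difference was 0.23 on the log2 scale (95% interval -0.09 to 0.55, edgeR adjusted p = 0.390), and 0.08 without that library.
*Smad3* was at 99.2, 131, 91.4 and 90.7 CPM in control and at 79.2, 108, 63.3 and 105 CPM in NOX4-deficient muscle. NOX4-deficient replicates 1 and 3 lay below every control. On the log2 scale the difference was -0.21 (95% interval -0.60 to 0.17, edgeR adjusted p = 0.516). The ratio of *Smad3* to *Smad2* counts averaged 7.03 ± 1.88 among controls and 5.11 ± 1.08 with NOX4 deficiency (SD, n = 4 each), and its ranges overlapped.
*Smad7*, the feedback inhibitor, was at 8.93, 6.33, 5.62 and 5.30 CPM in control and at 8.96, 7.54, 8.04 and 7.74 CPM in NOX4-deficient muscle. The NOX4-deficient mice lay above 3 of the 4 controls, and control replicate 1 lay at their upper end. *Smad7* had a log2 fold change of 0.30 (95% interval -0.08 to 0.69, edgeR adjusted p = 0.334), and 0.49 without control replicate 1.

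For all 9 members tested, a change of 1 on the log2 scale in either direction lay outside the 95% interval. The lowest bound was -0.89 (*Fstl1*) and the highest 0.86 (*Acvr1b*), and smaller changes within these bounds could not be told from 0. The median log2 fold change of the members was -0.04, where that of all rows tested was 0.01. Within NOX4-deficient muscle, replicates 2 and 4 both lay above replicates 1 and 3 for 6 of the 10 members, *Mstn*, *Fstl3*, *Acvr2a*, *Acvr2b*, *Smad2* and *Smad3*, as they did in 27.3% of all rows tested. *Smad7* was lower in both of those libraries, as were 26.1% of all rows. In control muscle replicates 2 and 4 lay above replicates 1 and 3 for *Acvr2a* and *Acvr2b*, as in 18.0% of all rows, and below them for *Fstl3*, as in 17.1%. These splits follow the libraries named above for their length trend, whose part in the members' spread was not tested beyond a fit with that trend as a term, in which 0 members were called.

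**Figure D3:**
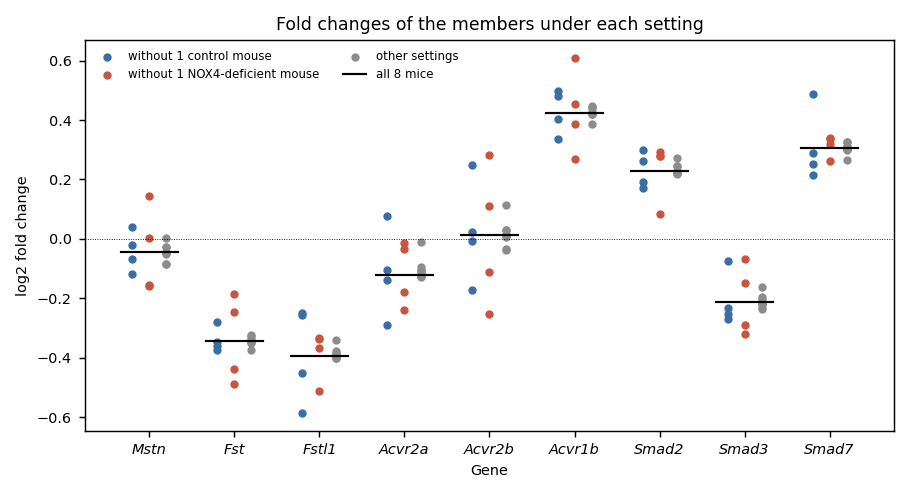
Log2 fold change of the 9 members tested with all 8 mice (line), without 1 control mouse, without 1 NOX4-deficient mouse, and under the other settings (points). *Mstn*, *Acvr2a* and *Acvr2b* lie on both sides of 0, and the other 6 members keep their sign in every fit.

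The wider pathway was described by 87 genes in 5 lists, of which 72 passed the filter. By the same test 2 were called higher and 5 lower, where 2.68% of all rows tested were called higher and 3.48% lower. Of the 72, groups did not overlap for 3 higher and 9 lower genes, where 7.2% and 8.97% of all rows tested did so. Their median log2 fold change was 0.08, and by list it was 0.11 for ligands, 0.09 for processing and binding, -0.16 for receptors, -0.13 for SMADs and their regulators and 0.41 for SMAD target genes. The lists were written with earlier results of these data known.

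Of 12 ligands tested, 1 was called. *Gdf11*, the closest relative of myostatin, which uses the same receptors, rose from 15.1, 17.2, 13.8 and 19.1 CPM in control to 21.3, 29.7, 21.9 and 22.7 CPM in NOX4-deficient muscle. Every NOX4-deficient mouse lay above every control. The fitted difference was 0.55 on the log2 scale (SE 0.14, adjusted p = 0.0354 in edgeR), with an adjusted p-value from 0.00496 to 0.0927 over all alternatives tried. Of the 8 fits that each left out 1 library, 5 lost the call. Whether *Gdf11* and *Mstn* differed in their response was not tested. *Tgfb2*, which encodes a TGFβ ligand (0.49, edgeR adjusted p = 0.0729), and *Inha*, the inhibin α subunit (0.89, edgeR adjusted p = 0.0906), were not called. *Tgfb2* passed the threshold without control replicate 4 (0.64, edgeR adjusted p = 0.0225) and with the length trend of the libraries as a term (0.55, edgeR adjusted p = 0.00754). *Inhba*, the activin βA subunit, was near 1 CPM in both groups (-0.05, edgeR adjusted p = 0.966), and its sign changed with single libraries.

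Of 16 genes for ligand processing and extracellular binding 0 were called by edgeR. An unadjusted p-value under 0.05 in edgeR was seen for 4 of them, where 23.2% of all rows tested had one. *Furin*, a convertase that cleaves the precursors of this family, averaged 55.3 ± 3.49 CPM among controls and 45.4 ± 3.77 CPM with NOX4 deficiency (SD, n = 4 each), and its groups did not overlap (-0.28, edgeR adjusted p = 0.105). *Thbs1*, which encodes thrombospondin 1, an activator of latent TGFβ, had a log2 fold change of -0.91 (edgeR adjusted p = 0.104) and was called in 4 of the 18 alternatives, DESeq2 and pydeseq2 among them. *Igsf1* was at 0.872 ± 0.486 CPM and 1.61 ± 0.221 CPM (0.90, edgeR adjusted p = 0.152), and was called without control replicate 1 (1.31, edgeR adjusted p = 0.0435).

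Of 11 receptors and co-receptors 2 were called, both lower. *Tgfbr1*, the type I receptor of TGFβ also known as ALK5, through which myostatin can signal as well, fell from 54.0, 63.5, 57.4 and 79.3 CPM in control to 30.4, 48.5, 34.7 and 42.0 CPM in NOX4-deficient muscle. The groups did not overlap, and the log2 fold change was -0.71 (SE 0.16, adjusted p = 0.0198 in edgeR). *Tgfbr3*, the co-receptor betaglycan, fell from a mean of 48.1 ± 7.02 to one of 30.8 ± 7.20 CPM (SD, n = 4 each), also without overlap (log2 fold change -0.64, edgeR adjusted p = 0.0332), but 5 of the 8 fits without 1 library lost this call. The type II receptor *Tgfbr2* (-0.38, edgeR adjusted p = 0.116), the BMP receptor *Bmpr1b* (-0.41, edgeR adjusted p = 0.0657) and the type I receptor *Acvr1* (0.19, edgeR adjusted p = 0.323) were not called. Without NOX4-deficient replicate 2, *Bmpr1b* was called (-0.51, edgeR adjusted p = 0.0368). *Acvr1b*, also a type I receptor for SMAD2 and SMAD3, thus had a positive log2 fold change in the same libraries in which *Tgfbr1* was lower, and the difference between them was not tested. Without control replicate 4 the adjusted p-value of *Tgfbr1* was 0.0552, and without NOX4-deficient replicate 3 it was 0.0584, in edgeR.

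Among 18 SMADs and regulators 2 were called, both lower. *Smad5*, which acts in the BMP arm, fell from 45.1, 52.8, 53.5 and 52.1 CPM to 32.2, 37.6, 35.2 and 36.6 CPM. All NOX4-deficient mice lay below all controls, with a log2 fold change of -0.52 (SE 0.10, adjusted p = 0.00976 in edgeR). Without control replicate 3 or NOX4-deficient replicate 1 it was -0.49 and -0.47, under the minimum for a call. *Tgif1*, which encodes a corepressor of SMAD2 and SMAD3, fell from 12.8, 14.6, 8.99 and 19.2 CPM to 6.20, 6.32, 3.99 and 5.86 CPM, also without overlap. It differed by -1.31 on the log2 scale (SE 0.22, adjusted p = 0.00529 in edgeR), and it was called in every alternative tried. *Fbxo30*, a ubiquitin ligase of muscle atrophy, had a log2 fold change of -0.44, under the minimum for a call (edgeR adjusted p = 0.0354). *Smad4*, the partner of SMAD2 and SMAD3, was not called (-0.21, edgeR adjusted p = 0.322).

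**Figure D4:**
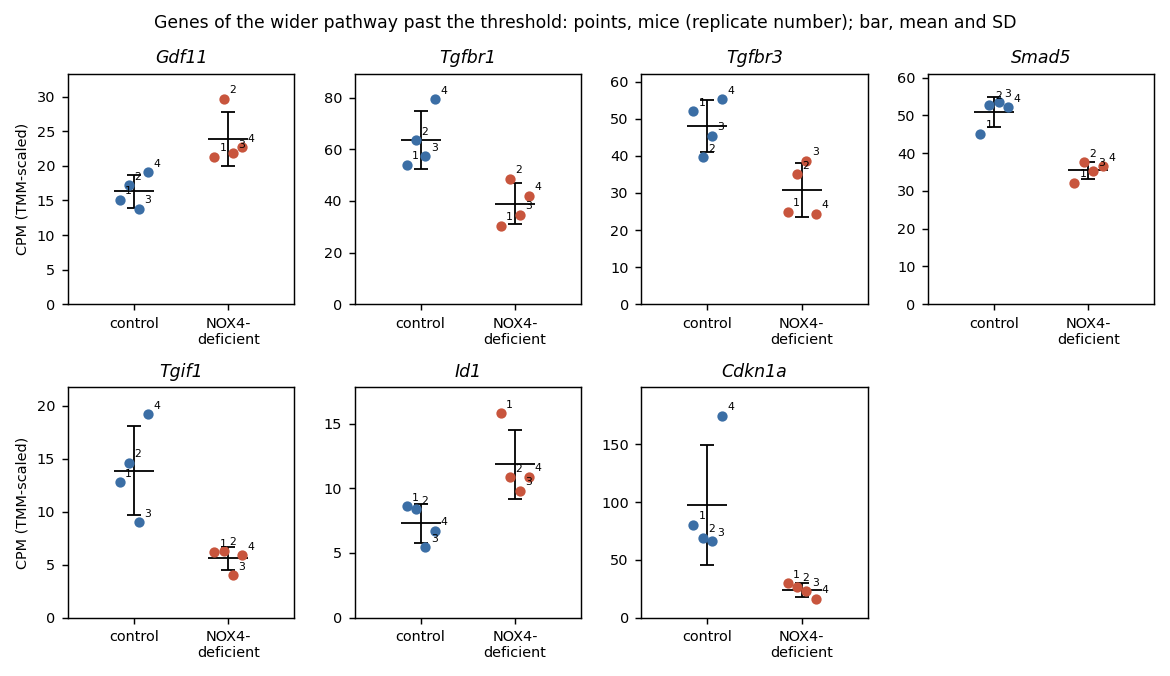
CPM by mouse of the 7 genes of the wider pathway past the threshold, on linear axes from 0, with replicate numbers and the mean and SD of 4 mice. *Gdf11* and *Id1* are higher in all NOX4-deficient mice than in all controls, and *Tgfbr1*, *Tgfbr3*, *Smad5*, *Tgif1* and *Cdkn1a* are lower.

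Of 15 SMAD target genes 1 was called higher and 1 lower. *Id1*, a BMP target that encodes an inhibitor of basic helix-loop-helix factors, rose from 8.63, 8.39, 5.46 and 6.71 CPM to 15.8, 10.9, 9.83 and 10.9 CPM. The groups did not overlap (log2 fold change 0.70, SE 0.19, adjusted p = 0.0430 in edgeR), but 6 of the 8 fits without 1 library lost the call. *Cdkn1a*, which encodes the cell cycle inhibitor p21 and is also a p53 target, fell from 80.2, 69.0, 66.0 and 175 CPM to 29.7, 26.5, 22.6 and 16.5 CPM. It differed by -2.03 on the log2 scale (SE 0.33, adjusted p = 0.00841 in edgeR), and by -1.59 without control replicate 4, the highest library. *Atoh8* (-0.66, edgeR adjusted p = 0.0668) was not called, although its groups did not overlap, and it passed the threshold in 4 of the 18 alternatives, DESeq2 and pydeseq2 among them (lowest adjusted p = 0.0301, in DESeq2). The TGFβ targets *Ccn2* (0.00026, edgeR adjusted p = 1.00) and *Tgfbi* (-0.14, edgeR adjusted p = 0.819), named after their values were seen, were not called.

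Markers of denervated muscle, 0 of 8 of them called, had a summed level of 89.1 to 171 CPM among controls and 60.3 to 83.3 CPM with NOX4 deficiency. Immune cell markers (0 of 8 called) summed to 52.3 to 143 CPM and 25.7 to 84.8 CPM, and tendon markers (0 of 5 called) to 122 to 197 CPM and 165 to 328 CPM. Satellite cell, endothelial and adipocyte markers had 0 genes called. The part of other cell types in the values of *Tgfbr1*, *Tgfbr3*, *Cdkn1a* and the other genes above was not tested.

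**Figure D5:**
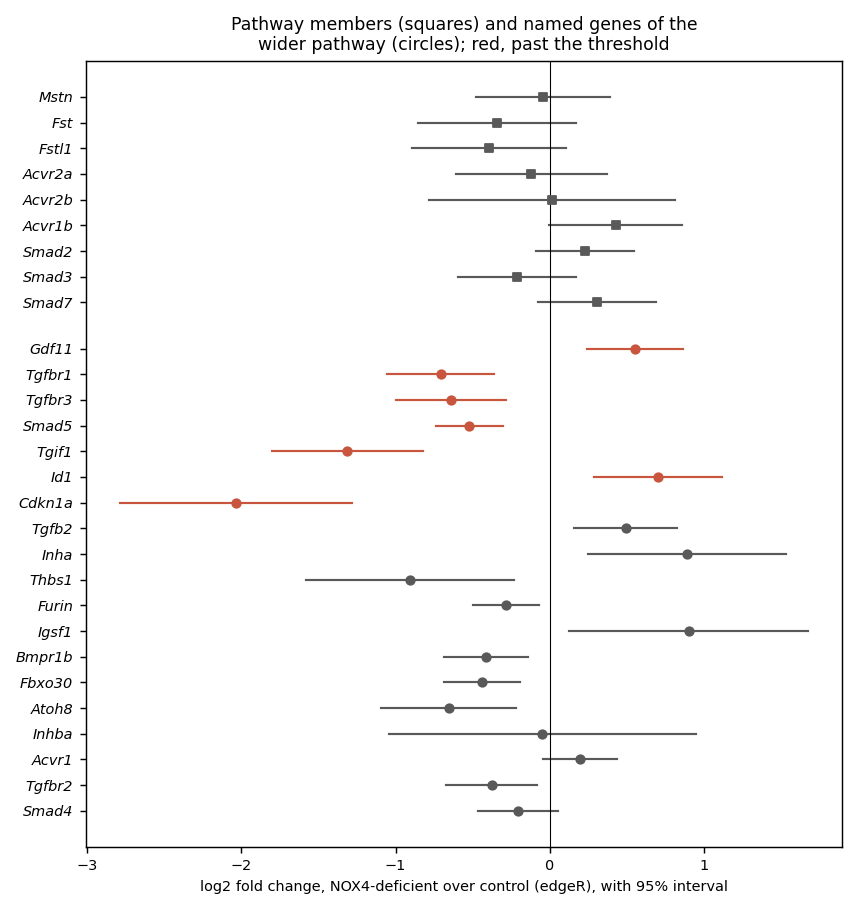
Log2 fold change with 95% interval (edgeR) for the 9 members tested (squares) and 19 named genes of the wider pathway (circles), with genes past the threshold in red. The intervals of the members all include 0, and *Acvr1b* reaches it only at the lower end of its interval (-0.01).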

How the data were processed

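Poly(A) RNA from gastrocnemius of 8 mice was sequenced in paired ends without strand, and the reads went through the nf-core pipeline for RNA-seq. Per the file headers and values, the authors deposited unnormalized whole-number counts for each gene and mouse. The submitters' processing notes name STAR and GRCm39, and the annotation and counter settings are not given in the sources used here. Of columns with values, 0 were left without a sample. Where a name was repeated, the row with most counts stood for it. Counts were analyzed with edgeR 4.0.16 in R 4.3.3 (TMM, filterByExpr, estimateDisp, robust glmQLFit, glmQLFTest) on all 8 samples, with no covariate beside genotype. The 95% intervals use the moderated degrees of freedom of this test. Exon lengths come from GENCODE M21 (GRCm38), and no coordinates were carried between builds. DESeq2 1.42.0 and pydeseq2 0.5.4, other normalizations and filters, a fit that was not robust, a replicate block, a term for odd and even replicates and leave-one-out fits were alternatives, and a term for the length trend of the libraries was added after the data were seen. The fits were tested on simulated data. Genes named in the wider pathway are those called, the 3 with the smallest p-values of each list, and 6 counterparts of the members (*Gdf11*, *Inhba*, *Acvr1*, *Tgfbr1*, *Tgfbr2* and *Smad4*). Any other gene of these lists that is named was chosen after its values were seen. The members and lists were chosen with earlier results of these data known. Each sample is a separate mouse per the study, and p-values measure the spread between these mice. One listed gene is not reported here.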

Additional observations from a re-analysis of the deposited data

Results flagged for a closer look

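Over the 10 members, *Nox4* and the 19 named genes of the wider pathway, 60 groups of 4 mice were examined for a mouse far from the other 3, by the gap to its nearest neighbor divided by the range of the group (Dixon's ratio, set against its 95% critical value for 4 mice). In 9 groups a mouse stood apart, where chance gives about 3. Among the members, *Fst* was highest in control replicate 1 (ratio 0.861) and *Smad2* was highest in NOX4-deficient replicate 2 (0.906). *Nox4* was lowest in NOX4-deficient replicate 1 (0.918). In the wider pathway *Gdf11* was highest in NOX4-deficient replicate 2 (0.835), *Atoh8* was lowest in NOX4-deficient replicate 1 (0.933), and *Acvr1* was lowest in NOX4-deficient replicate 3 (0.859). *Smad5* was lowest in control replicate 1 (0.843), and *Cdkn1a* (0.869) and *Tgfb2* (0.833) were highest in control replicate 4.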

How the results depend on the processing

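The alternatives that used all 8 mice called 0 members, from 5 to 10 genes of the wider pathway, against 7, and 719 to 1009 genes in all. Without single libraries, 0 to 1 members, 3 to 7 genes of the wider pathway and 499 to 712 genes in all were called, against 784 with all mice. The 3 came without control replicate 3, 4 without NOX4-deficient replicate 1, and the 499 without control replicate 4. *Fst*, *Fstl1*, *Acvr1b*, *Smad2*, *Smad3*, *Smad7* and *Nox4* kept their sign in every alternative. Without single libraries the log2 fold change ranged from -0.16 to 0.15 for *Mstn*, -0.29 to 0.078 for *Acvr2a*, -0.25 to 0.28 for *Acvr2b*, -0.32 to 0.36 for *Inhba* and -0.82 to -0.36 for *Nox4*. With the length trend as a term *Mstn* was at 0.0042, and *Tgfbr3* and *Smad5* lost their calls (-0.64 and -0.50). The term for odd and even replicates gave -0.036 for *Acvr2b*. The deviations of same-numbered mice from the group means correlated at 0.22, 0.15, 0.04 and 0.04, and those of mice with unlike numbers at -0.21 to 0.19. These values do not decide whether same-numbered mice were paired, and the sample titles give only the number. With the replicate number as a block 933 genes, 0 members and 8 of the wider pathway were called, *Acvr2b* was at -0.034, *Tgfbr3* and *Cdkn1a* lost their calls (adjusted p = 0.055 and 0.0718 in edgeR), and *Thbs1* was among the genes that gained one. The causes of these shifts were not tested. Low counts kept *Fstl3* below the filter.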

Other observations

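Among SMAD target genes that encode matrix proteins, *Col1a1* averaged 29.1 ± 12.2 CPM among controls against 49.2 ± 13.9 CPM with NOX4 deficiency (log2 fold change 0.76, edgeR adjusted p = 0.213). *Col1a2* averaged 45.2 ± 16.5 against 76.6 ± 20.7 CPM (0.76, edgeR adjusted p = 0.170), and *Postn* 5.53 ± 1.60 against 7.50 ± 0.386 CPM (0.44, edgeR adjusted p = 0.207), with SDs over 4 mice each. *Fn1*, of the same list, had the opposite sign, at 37.5 ± 11.8 against 31.3 ± 9.50 CPM (-0.26, edgeR adjusted p = 0.607), as had *Tgfbi*. None of them was called. The ligand *Bmp7* had 5, 6, 3 and 1 counts among the controls, against 8, 16, 13 and 6 with NOX4 deficiency, and its CPM did not overlap. The ligand *Gdf5* had 3, 3, 2 and 2 counts against 1, 1, 0 and 0. Both lay below the filter and were not tested. Of the 5 satellite cell markers tested, *Pax7* (0.67, edgeR adjusted p = 0.117), *Vcam1* (0.55, edgeR adjusted p = 0.202) and *Heyl* (0.22, edgeR adjusted p = 0.450) had positive log2 fold changes and *Myf5* (-0.13, edgeR adjusted p = 0.856) and *Cdh15* (-0.05, edgeR adjusted p = 0.872) negative ones, and 0 were called. These genes were chosen after their values were seen.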
